A study of Homo sapiens with 15 samples.

Results

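A group of 10 matrix proteases and protease inhibitors was followed across the 5 transfection conditions of the HGrC1 human granulosa cell line. They were chosen by symbol from the gene table, with earlier results of these data known. The group holds the matrix metalloproteinases MMP1, MMP2, MMP3 and MMP14, the tissue inhibitors TIMP1, TIMP2 and TIMP3, and the proteases ADAM17, ADAM19 and ADAMTS1. All 10 were found among the 37787 genes of the table. RNA was sequenced from 15 libraries, 3 per condition, labelled A, B and C. The question was what FOXL2WT or the granulosa-tumour form FOXL2C134W does to transcription together with SMAD3, and how constitutively active FOXO1 changes it.

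HGrC1 is an immortalized line of non-luteinized granulosa cells with normal FOXL2 alleles, and all libraries came from this single line at passage 14. Plasmids were delivered by transient lipofection over 4 h, after which the cells were kept in serum-free medium for 24 h. The Vectors condition received empty plasmids. The FOXL2WT and FOXL2C134W conditions received Flag-tagged FOXL2 of either form together with SMAD3, and FOXL2WT+FOXO1 and FOXL2C134W+FOXO1 received, in addition, FOXO1-3A, a FOXO1 that escapes inhibitory phosphorylation. SMAD3 was thus part of every condition but Vectors, so a comparison with Vectors cannot tell FOXL2 and SMAD3 apart. The methods describe 15 lysed cell samples with 3 replicates in each condition, without saying whether the replicates were transfected on different days, so p-values measure the spread between these samples of 1 cell line.

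Matrix metalloproteinases are zinc proteases that cut collagens and other matrix proteins, mostly after their own propeptide has been removed, and TIMPs bind their active sites and stop them. TIMP2 has a second role: bound to the membrane protease MMP14, it holds pro-MMP2 at the cell surface for activation. ADAM proteases release growth factors and cytokine receptors from the membrane, while ADAMTS proteases are secreted and cut proteoglycans. In the ovary these enzymes rebuild the follicle wall and its matrix as follicles grow and rupture.

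The libraries held 14962245 to 25339094 counts. RNA of the transfected genes followed the labels but not at equal levels. For protein, the paper reports that FOXL2WT, FOXL2C134W and FOXO1 were balanced in an immunoblot of samples cultured in parallel. FOXL2 stood at 8.73 ± 0.704 CPM (counts scaled to library size by TMM; mean ± SD, n = 3) in Vectors, 560 ± 5.89 in FOXL2WT and 147 ± 27.0 in FOXL2C134W. SMAD3 stood at 249 ± 12.0, 2767 ± 154 and 843 ± 37.4 CPM in the same conditions, and fell to 969 ± 10.8 and 392 ± 16.9 CPM where FOXO1 was added to FOXL2WT and FOXL2C134W. FOXO1 was at 117 ± 14.5 CPM in FOXL2WT+FOXO1 and 43.2 ± 4.05 CPM in FOXL2C134W+FOXO1. RNA of at least 1 transfected gene thus differed in every comparison made here, and its part in the members' results was not tested. Of 16 granulosa markers 11 were tested, among them NR5A1, FST and GJA1, while the gonadotropin receptors FSHR and LHCGR had 0 counts in every library and CYP19A1, the aromatase gene, 0 to 4.

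Promoters are shown for MMP14, lower with FOXL2WT than with empty vectors, and ADAM19, higher with FOXL2C134W than with FOXL2WT. Each is the stretch of 250 bases before the gene's RefSeq start, read from RefSeq on GRCh38.p14 and written along the gene's strand. Entries for MMP1, MMP2, MMP3, TIMP2 and ADAMTS1 were missing, and those of TIMP1, TIMP3 and ADAM17 were searched but are not printed. Capitals mark the GC box GGGCGG, read on either strand, the only motif searched that occurred.
MMP14, chr14:22836335-22836584, plus strand: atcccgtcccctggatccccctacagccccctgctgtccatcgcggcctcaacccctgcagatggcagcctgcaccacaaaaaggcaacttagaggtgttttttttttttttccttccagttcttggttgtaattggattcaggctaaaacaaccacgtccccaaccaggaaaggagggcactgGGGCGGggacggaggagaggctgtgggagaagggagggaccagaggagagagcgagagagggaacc
ADAM19, chr5:157575776-157576025, minus strand: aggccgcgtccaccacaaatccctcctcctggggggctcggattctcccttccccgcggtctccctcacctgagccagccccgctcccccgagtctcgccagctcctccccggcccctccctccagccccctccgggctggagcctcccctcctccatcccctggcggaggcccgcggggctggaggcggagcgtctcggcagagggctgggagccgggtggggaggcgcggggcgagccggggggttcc
The MMP14 window held 1 GC box, which began 66 bases before the start, and the ADAM19 window held none. GC boxes occurred in 42.3% of the 27305 promoters of the same length. The ADAM19 window was 76.4% G and C and the MMP14 window 56.8%, against a median of 58% over all promoters. The AP-1 site TGANTCA (6.60% of all promoters), the forkhead site TGTTTAC (2.98%) and its core TGTTTA (11.1%), the SMAD palindrome GTCTAGAC (0.176%) and the SMAD-associated letters CAGACA (13.6%) were absent from all 5 windows on both strands. The core lies within the longer forkhead site, so those searches overlap.

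TIMP1 and TIMP2 stood above every protease in level, while TIMP3 stood below 5 of them. Expressed as CPM per kilobase of the transcript with most reads, over all 15 libraries, TIMP1 was highest at 281 ± 9.47 (SD, n = 15) and TIMP2 second at 115 ± 7.99. The membrane protease MMP14 followed at 49.2 ± 3.50, then the gelatinase MMP2 at 33.6 ± 2.73, ADAM17 at 23.2 ± 1.21, ADAM19 at 15.8 ± 0.967 and ADAMTS1 at 9.73 ± 0.497 CPM per kilobase. The matrix-bound inhibitor TIMP3 was low at 2.25 ± 0.271, near the interstitial collagenase MMP1 at 1.49 ± 0.272, and the stromelysin MMP3 was close to absent at 0.090 ± 0.0497 CPM per kilobase. Neighbours in this order did not overlap in any library, except TIMP3 (1.87 to 2.83) and MMP1 (1.06 to 2.03). The authors' TPM gave the same order of means, from 1151 for TIMP1 to 0.121 for MMP3, but there MMP14 (75.9 to 101) overlapped MMP2 (54.8 to 102), and ADAM19 (17.1 to 22.5) overlapped ADAMTS1 (11.2 to 22.7).

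**Figure D1:**
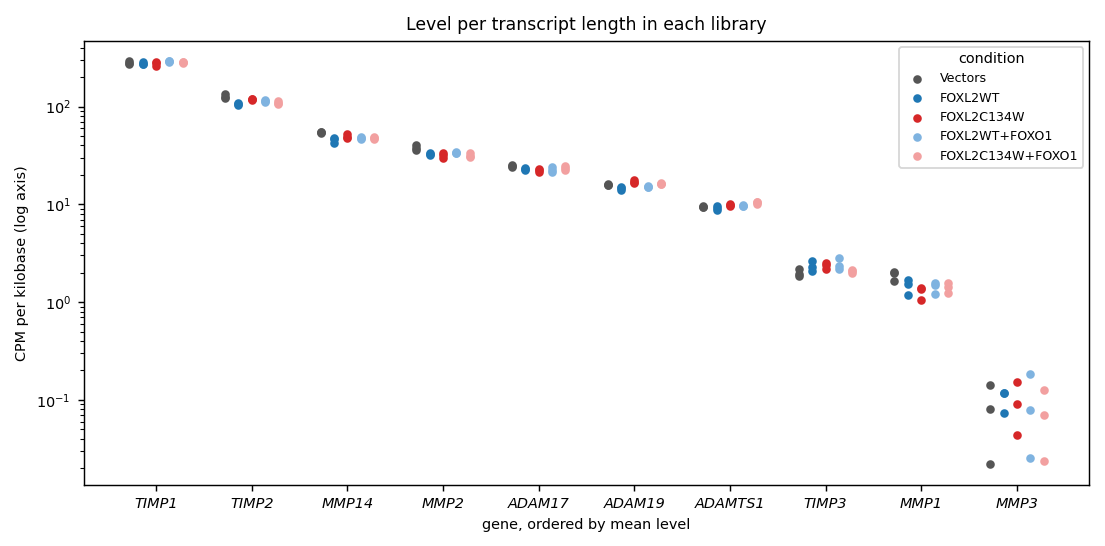
Level of each of the 10 genes in CPM per kilobase of its main transcript (log axis), with 1 point for each of the 15 libraries, coloured by condition. TIMP1 (mean 281) and TIMP2 (115) lie above every protease, and MMP3 (0.090) lies below all others, with small differences between conditions beside the differences between genes.

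MMP3 had 1 to 6 counts per library, about the floor of 3 counts below which a level cannot be told from none. It was below the expression filter, was not tested, and no change in it could be detected at this depth. The other 9 members were tested together with 13868 genes by edgeR's quasi-likelihood test, and a gene was called at an adjusted p (Benjamini-Hochberg over all genes tested) under 0.05. Of the 9, 6 were called in at least 1 of the 9 comparisons. The share of all genes called in at least 1 comparison was not computed, so this count has no background beside it. TIMP1, TIMP3 and ADAMTS1 were called in none.

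**Figure D2:**
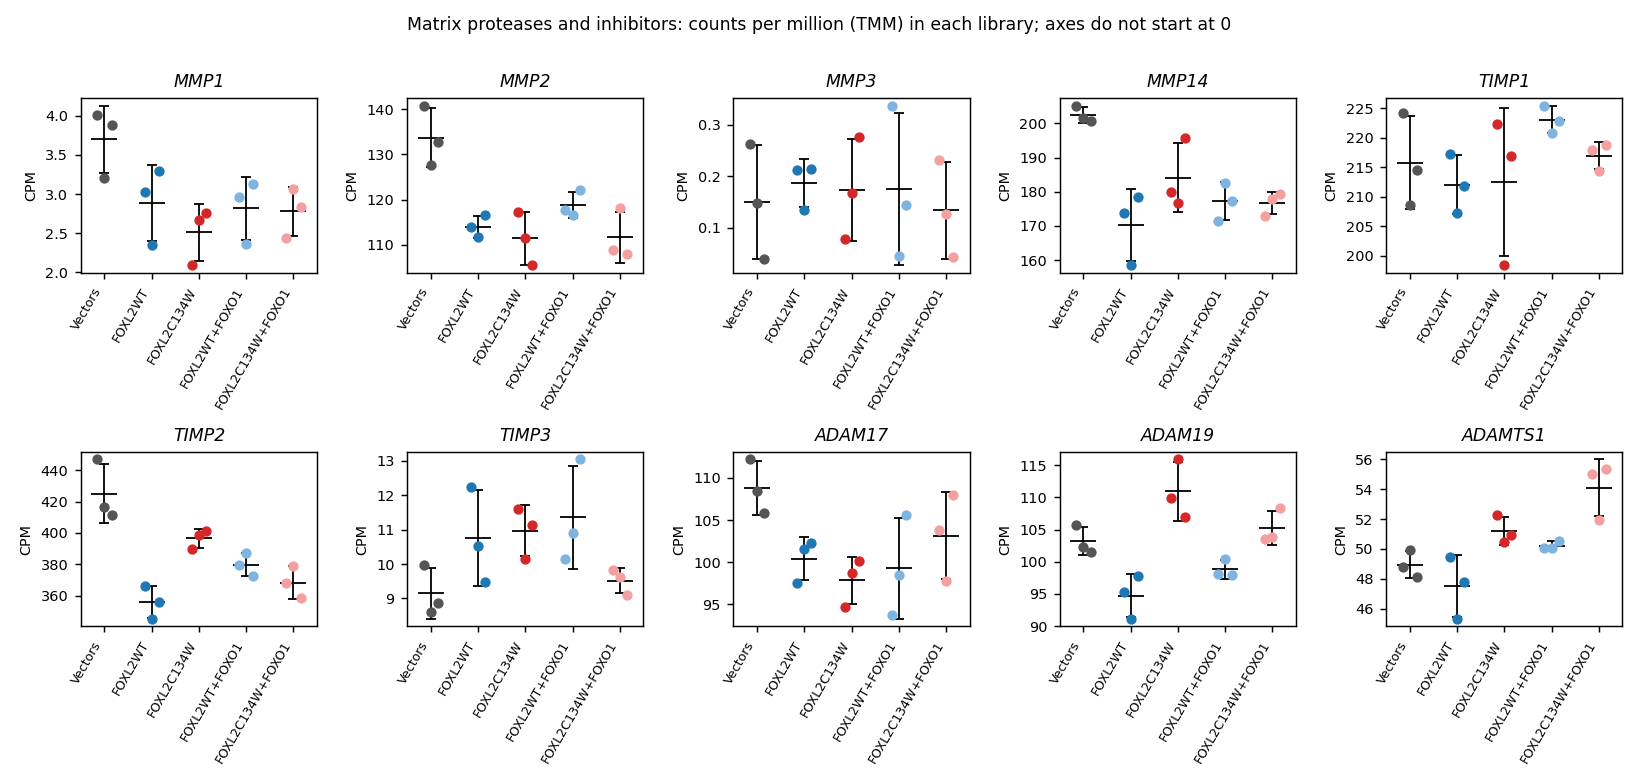
CPM of each gene (vertical axes, which do not start at 0) in the 3 libraries of each condition (points), with the mean and SD in black. MMP2, MMP14 and TIMP2 are highest in the 3 Vectors libraries, ADAM19 is highest in FOXL2C134W, and the points of MMP3 rest on 1 to 6 counts.

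MMP2, MMP14 and TIMP2, the genes of the pro-MMP2 activation complex, were lower with FOXL2WT and SMAD3 than with empty vectors. These were the 3 members called of 9 in FOXL2WT against Vectors, all lower, where 6.07% of all genes tested were called. The median log2 fold change was -0.12 over the 9 members and 0.00 over all genes. In bulk RNA, fewer cells of a type and less RNA per cell cannot be told apart, and this holds for every difference given here.

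TIMP2 was measured at 447, 417 and 412 CPM in Vectors libraries A, B and C and at 366, 345 and 356 CPM in FOXL2WT. FOXL2C134W gave 389.9, 399 and 401 CPM, FOXL2WT+FOXO1 379.6, 387 and 372 CPM, and FOXL2C134W+FOXO1 368, 379 and 358 CPM. All 12 libraries that received SMAD3 lay below the lowest Vectors library, and the FOXL2WT libraries lay lowest but for the overlap with 1 library of FOXL2C134W+FOXO1. In FOXL2WT against Vectors the libraries did not overlap for 31.1% of all genes tested. The share of all genes with all 12 libraries below Vectors was not computed. TIMP2 was 0.838-fold in FOXL2WT against Vectors (log2 -0.26 ± 0.04 SE, edgeR adjusted p = 0.00054), a call kept in all 16 alternative fits, those leaving out 1 library included.

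MMP14 was measured at 205, 202 and 201 CPM in Vectors and at 174, 159 and 179 CPM in FOXL2WT. FOXL2C134W gave 180.1, 177 and 196 CPM, FOXL2WT+FOXO1 171.5, 183 and 177 CPM, and FOXL2C134W+FOXO1 173, 178 and 179 CPM. Again every one of the 12 other libraries lay below all Vectors libraries, while these 4 conditions overlapped among themselves. For this separation too, no share over all genes was computed. MMP14 was 0.842-fold in FOXL2WT against Vectors (log2 -0.25 ± 0.05, edgeR adjusted p = 0.0037), kept in all 16 alternatives.

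MMP2, the gelatinase that cuts denatured and basement membrane collagen, was measured at 141, 128 and 133 CPM in Vectors and at 114, 112 and 117 CPM in FOXL2WT. FOXL2C134W gave 117, 111 and 106 CPM, FOXL2WT+FOXO1 118, 117 and 122 CPM, and FOXL2C134W+FOXO1 109, 118 and 108 CPM. All 12 lay below the Vectors libraries, again without a share over all genes to set beside it. MMP2 was 0.853-fold in FOXL2WT against Vectors (log2 -0.23 ± 0.05, edgeR adjusted p = 0.0085). The MMP2 call was lost without Vectors A (log2 -0.19, adjusted p = 0.075) and without FOXL2WT B (log2 -0.22, adjusted p = 0.051), and in DESeq2 with transcript length offsets (log2 -0.35, adjusted p = 0.066).

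With FOXL2C134W and SMAD3, MMP2, MMP1 and ADAM17 were lower than with empty vectors. They were the 3 members called of 9 in FOXL2C134W against Vectors, where 14.7% of all genes were called. The median log2 fold change was -0.10 over the members and 0.00 over all genes. Both comparisons use the same Vectors libraries, so their values stand side by side and are no independent evidence of each other.

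MMP2 was 0.833-fold in FOXL2C134W (log2 -0.26 ± 0.05, edgeR adjusted p = 0.0012), kept in all 16 alternatives. MMP14 (log2 -0.14 ± 0.05, edgeR adjusted p = 0.055) and TIMP2 (log2 -0.10 ± 0.04, edgeR adjusted p = 0.093) were not called, although their libraries did not overlap with those of Vectors, which was so for 31.8% of all genes tested. MMP14 and TIMP2 were both called with an offset for gene length (log2 -0.15 and -0.13, edgeR adjusted p = 0.018 and 0.023), which raised the members called in this comparison from 3 to 5. Of the 16 alternatives, MMP14 was called in 5, DESeq2 among them, and TIMP2 in 2.

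MMP1, which cuts fibrillar collagens, showed the largest fold change among the members but the fewest counts of those tested. It had 92, 65 and 97 counts in Vectors (4.01, 3.21 and 3.88 CPM) and 53, 64 and 60 counts in FOXL2C134W (2.10, 2.67 and 2.76 CPM). MMP1 in FOXL2WT, with 3.03, 2.35 and 3.29 CPM, overlapped both. It was 0.675-fold in FOXL2C134W against Vectors (log2 -0.57 ± 0.17, edgeR adjusted p = 0.030). The MMP1 call was lost when Vectors A or C or FOXL2C134W A or B was left out, at log2 -0.44 to -0.61 and adjusted p of 0.064 to 0.12, and for MMP1 in DESeq2 without (adjusted p = 0.059) and with transcript length offsets (0.14).

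ADAM17, the sheddase that releases TNF and ligands of the EGF receptor, was measured at 112, 108 and 106 CPM in Vectors and at 94.7, 98.7 and 100.1 CPM in FOXL2C134W, without overlap. It was 0.899-fold (log2 -0.15 ± 0.05, edgeR adjusted p = 0.040). The ADAM17 call was lost whichever of the 6 libraries was left out (adjusted p from 0.056 without FOXL2C134W C to 0.16 without Vectors A) and in DESeq2 with transcript length offsets (0.24), always in the same direction. FOXL2WT gave 97.5, 102 and 102 CPM, and the difference from Vectors (log2 -0.12 ± 0.05) was not called, at an edgeR adjusted p = 0.18.

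**Figure D3:**
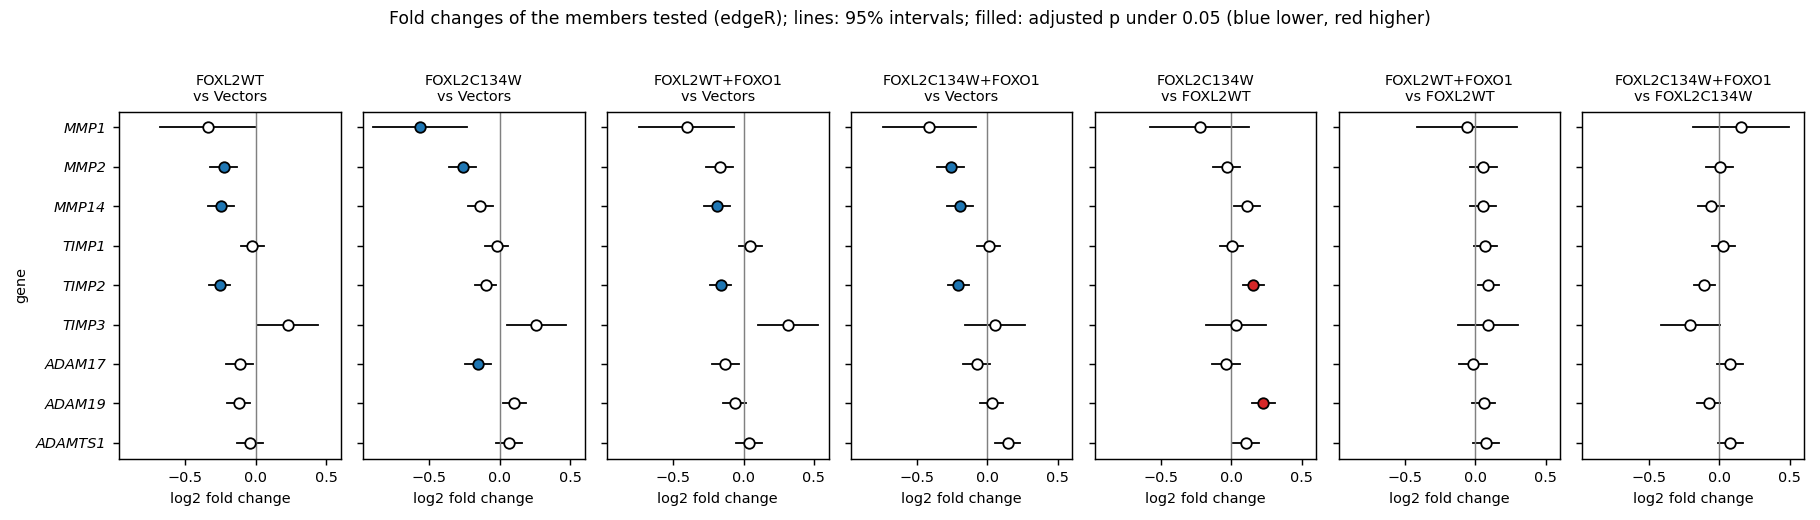
Log2 fold changes (horizontal axis) of the 9 members tested in 7 comparisons, with nominal 95% intervals from the standard error as lines. Filled points passed an adjusted p under 0.05 (blue lower, red higher). MMP2, MMP14 and TIMP2 lie below 0 in all 4 comparisons with Vectors, TIMP1 stays within 0.05 of 0 in those comparisons, and the members called between FOXL2C134W and FOXL2WT are TIMP2 and ADAM19.

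ADAM19 and TIMP2 were higher in FOXL2C134W than in FOXL2WT. They were the 2 members called of 9, where 11.2% of all genes were called, and the median log2 fold change was 0.03 over the members and -0.01 over all genes. ADAM19, a membrane protease that sheds neuregulins, was measured at 95.3, 91.2 and 97.8 CPM in FOXL2WT and at 109.9, 116 and 107 CPM in FOXL2C134W. Vectors lay between, at 106, 102 and 102 CPM, with no overlap with either form, though neither form was called against Vectors. Libraries of the 2 forms did not overlap for 30.4% of all genes tested. ADAM19 was 1.17-fold in FOXL2C134W against FOXL2WT (log2 0.23 ± 0.04, edgeR adjusted p = 0.0018). TIMP2 was 1.11-fold (log2 0.16 ± 0.04, edgeR adjusted p = 0.013), and its FOXL2C134W libraries lay above all FOXL2WT and below all Vectors libraries.

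Both calls were lost with an offset for gene length, and the part of length in them was not tested. Over all genes, the median log2 fold change of FOXL2C134W against FOXL2WT was -0.06 for the 6477 genes under 2 kb, 0.02 for the 6114 genes of 2 to 5 kb and 0.14 for the 1277 genes over 5 kb. The main transcript of ADAM19 has 6481 bases and that of TIMP2 3345. With an offset for gene length, ADAM19 went to log2 0.08 (edgeR adjusted p = 0.30) and TIMP2 to log2 0.11 (edgeR adjusted p = 0.067), and no member was called. An offset for the average transcript length of each library, in DESeq2, kept both, at log2 0.24 for ADAM19 and 0.17 for TIMP2, and added MMP14 (log2 0.21, DESeq2 adjusted p = 0.017). The TIMP2 call was also lost without FOXL2WT B (log2 0.14, adjusted p = 0.068) and without FOXL2C134W C (log2 0.15, adjusted p = 0.057), while ADAM19 was kept without any single library.

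**Figure D4:**
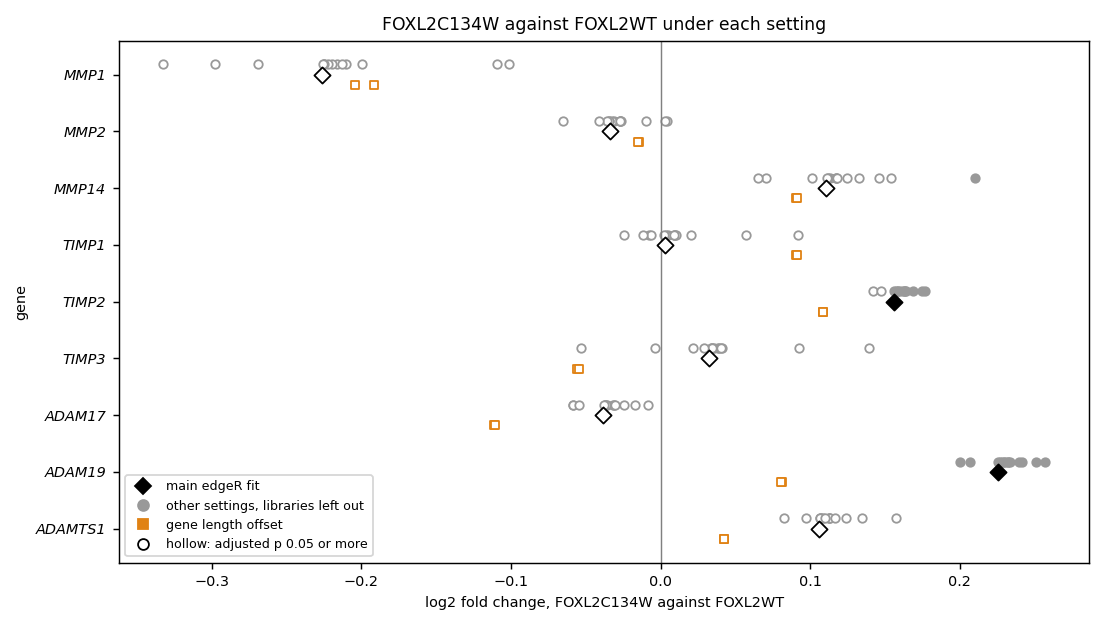
Log2 fold change of FOXL2C134W against FOXL2WT (horizontal axis) for the 9 members tested, in the main edgeR fit (diamonds), with a gene length offset (squares) and under the other settings, including each library left out (circles); hollow marks had an adjusted p of 0.05 or more. ADAM19 moves from 0.23 to 0.08 and TIMP2 from 0.16 to 0.11 with the gene length offset, and neither is then called.

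The other 7 members tested were not called between the FOXL2 forms. MMP1 differed by log2 -0.23 ± 0.18 (95% interval -0.58 to 0.12, edgeR adjusted p = 0.47), as large a change as that of ADAM19 but with a wider error. TIMP1 differed by log2 0.00 (-0.08 to 0.09) and TIMP3 by log2 0.03 (-0.18 to 0.24). MMP14 was higher in FOXL2C134W by log2 0.11 ± 0.05 (edgeR adjusted p = 0.14), with overlapping libraries. MMP2 differed by log2 -0.03 (95% interval -0.13 to 0.06) and ADAM17 by log2 -0.04 (-0.13 to 0.06). ADAMTS1, a secreted protease that cuts versican and is induced in ovulating follicles, was measured at 49.4, 45.4 and 47.8 CPM in FOXL2WT and at 52.3, 50.5 and 50.9 CPM in FOXL2C134W. These ADAMTS1 libraries did not overlap, yet the difference of log2 0.11 ± 0.05 was not called (edgeR adjusted p = 0.16).

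Of the ratios between members within a library, TIMP2 per MMP14 overlapped in all conditions and others did not. Counts of TIMP2 per count of MMP14 averaged 2.10 ± 0.0689 (SD, n = 3) in Vectors, 2.09 ± 0.0924 in FOXL2WT and 2.16 ± 0.103 in FOXL2C134W, and 2.14 ± 0.0609 and 2.09 ± 0.0742 in the 2 conditions with FOXO1, in the same order. TIMP2 per MMP2 was 3.57 ± 0.238 in FOXL2C134W, where each library lay above those of Vectors (3.18 ± 0.0814) and of FOXL2WT (3.12 ± 0.0846). ADAM19 per ADAM17 was 1.13 ± 0.0572 in FOXL2C134W and 0.944 ± 0.0409 in FOXL2WT, again without overlap. TIMP1 per TIMP2 was 0.508 ± 0.0115 in Vectors and 0.596 ± 0.00348 in FOXL2WT, also without overlap, and 0.536 ± 0.0365 in FOXL2C134W, which overlapped Vectors. MMP14 per MMP2 was 1.52 ± 0.0603 in Vectors, 1.49 ± 0.0633 in FOXL2WT and 1.66 ± 0.171 in FOXL2C134W, which overlapped Vectors but not FOXL2WT. These ratios compare counts, not molecules, and were not tested. How often the ratios of other genes separate was not computed.

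Adding FOXO1 changed no member past the threshold. In FOXL2WT+FOXO1 against FOXL2WT 0 of 9 members were called by edgeR, where 0.0505% of all genes were called, with 1 member at an unadjusted p under 0.05 and 0 called by DESeq2 among the 7 it gave an adjusted p. The median log2 fold change was 0.06 over the members and 0.00 over all genes. In FOXL2C134W+FOXO1 against FOXL2C134W edgeR again called 0 of 9, where 0.714% of all genes were called, with 1 member at an unadjusted p under 0.05 and 0 called by DESeq2. There both medians were 0.00.

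That member was TIMP2 in both, with opposite signs. TIMP2 was higher by log2 0.09 ± 0.04 where FOXO1 was added to FOXL2WT (edgeR adjusted p = 0.49) and lower by log2 -0.11 ± 0.04 where it was added to FOXL2C134W (edgeR adjusted p = 0.26). Every FOXL2WT+FOXO1 library lay above every FOXL2WT library, and every FOXL2C134W+FOXO1 library lay below every FOXL2C134W library. Such separation was found for 14.5% and 14.0% of all genes tested in these comparisons, and also for ADAM19, ADAMTS1, MMP2 and TIMP1 in the former and TIMP3 in the latter. The difference between these effects, tested as an interaction, was log2 -0.20 ± 0.05 (edgeR adjusted p = 0.081). Of 9 members 0 were called for this interaction by edgeR, where 1.38% of all genes were called, with 2 at an unadjusted p under 0.05, TIMP2 and ADAM19. DESeq2 called TIMP2 (log2 -0.21, adjusted p = 0.0096).

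Between the forms with FOXO1 present, FOXL2C134W+FOXO1 against FOXL2WT+FOXO1, edgeR called 0 of 9 members, where 0.144% of all genes were called, with 3 at an unadjusted p under 0.05 and 0 called by DESeq2 among the 7 it gave an adjusted p. These 3 were TIMP3, lower by log2 -0.26 ± 0.11 (edgeR adjusted p = 0.30), ADAMTS1 (log2 0.11 ± 0.05, edgeR adjusted p = 0.32) and ADAM19. Libraries of each of the 3 did not overlap, as for 15.2% of all genes tested. ADAM19 was at 103.6, 103.9 and 108 CPM in FOXL2C134W+FOXO1 and at 98.1, 100.5 and 97.9 CPM in FOXL2WT+FOXO1, a difference of log2 0.09 ± 0.04 (edgeR adjusted p = 0.35). The difference between the forms was thus log2 0.23 for ADAM19 without FOXO1 and 0.09 with it, and the interaction for ADAM19 was log2 -0.13 ± 0.06 (edgeR adjusted p = 0.35). For TIMP2 it was log2 0.16 without and -0.04 with FOXO1.

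MMP14 and TIMP2 were also lower than in Vectors where FOXO1 was present, with the Vectors libraries shared between all these comparisons. In FOXL2WT+FOXO1 against Vectors 2 of 9 members were called, both lower, where 3.78% of all genes were called. They were MMP14 (log2 -0.19 ± 0.05, edgeR adjusted p = 0.026) and TIMP2 (log2 -0.16 ± 0.04, edgeR adjusted p = 0.022). The MMP14 call was lost without any 1 of 5 of the 6 libraries (adjusted p from 0.068 to 0.12) and kept without FOXL2WT+FOXO1 B, and MMP14 was not called in DESeq2 with transcript length offsets (0.24). The TIMP2 call was lost without Vectors A (adjusted p = 0.15) or FOXL2WT+FOXO1 A (0.059) or C (0.091), and in edgeR fitted to only the 6 libraries compared (0.064). MMP2 (log2 -0.17 ± 0.05, edgeR adjusted p = 0.060) was not called, but passed in 6 of 16 alternatives, among them DESeq2 (log2 -0.17, adjusted p = 0.025) and the gene length offset (log2 -0.17, edgeR adjusted p = 0.033), and in none that left out a library. The median log2 fold change was -0.13 over the members and 0.00 over all genes.

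In FOXL2C134W+FOXO1 3 of 9 members were called, all lower, where 9.33% of all genes were called. MMP2 fell by 0.26 on the log2 scale (SE 0.05, edgeR adjusted p = 0.0019) and TIMP2 by a log2 change of -0.21 ± 0.04 (edgeR adjusted p = 0.0019), both kept in all 16 alternatives. MMP14 stood at log2 -0.20 ± 0.05 (edgeR adjusted p = 0.011), and its call was lost without Vectors A or without FOXL2C134W+FOXO1 A, at an adjusted p of 0.052 each, and in DESeq2 with transcript length offsets (0.081). The median log2 fold change was -0.08 over the members and 0.00 over all genes.

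TIMP1, TIMP3 and ADAMTS1 passed no test in the reported fit. TIMP1, the most abundant by length, stayed between 198 and 225 CPM in all 15 libraries, and its largest difference from Vectors was log2 0.05 (95% interval -0.04 to 0.13) in FOXL2WT+FOXO1. TIMP3, which also inhibits ADAM17, was at 8.60 to 9.98 CPM in Vectors and at 10.2 to 13.0 CPM in FOXL2WT+FOXO1, log2 0.32 ± 0.11 higher (edgeR adjusted p = 0.12). ADAMTS1 was at 48.2 to 49.9 CPM in Vectors and 51.9 to 55.4 CPM in FOXL2C134W+FOXO1, log2 0.14 ± 0.05 higher (edgeR adjusted p = 0.055). ADAMTS1 passed in 2 of 16 alternatives, with an offset for GC content (edgeR adjusted p = 0.047) and without FOXL2C134W+FOXO1 B (0.040), and turned to log2 -0.03 (adjusted p = 0.97) in DESeq2 with transcript length offsets. For TIMP3 and ADAMTS1 the libraries did not overlap in those comparisons, as for 22.7% of all genes tested in FOXL2WT+FOXO1 and 28.4% in FOXL2C134W+FOXO1 against Vectors.

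In the transcript estimates, reads of MMP2, TIMP1 and TIMP2 were split the most. The MMP2 transcript of 3514 bases held 56.4% ± 6.66 of MMP2 reads (SD, n = 3) in Vectors and 67.2% ± 4.47 in FOXL2C134W+FOXO1, and the coding transcript of 1978 bases held 21.2% ± 4.00 and 20.6% ± 1.25. The TIMP2 transcript of 3345 bases held 86.0% ± 1.38 of TIMP2 reads in Vectors (85.0% to 87.6%) and 74.0% ± 10.0 in FOXL2WT (64.3% to 84.2%). The ranges came close without overlap. Another TIMP2 transcript, of 3389 bases, was given 1485 reads in FOXL2WT C and 0 in FOXL2WT A and B. A TIMP1 transcript of 341 bases held 29.3% of TIMP1 reads but 69.6% of its TPM, so the TPM of TIMP1 rests mostly on a short transcript. These shares are estimates from 75-base reads and were not tested.

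The genes lie apart in the genome, except MMP1 (chr11:102789401-102798160) and MMP3 (chr11:102835801-102843609), which are neighbours on the minus strand (GENCODE 44 on hg38, the build of the files). MMP14 lies at chr14:22836560-22849041, MMP2 at chr16:55389700-55506691, TIMP2 at chr17:78852977-78925387 and ADAM19 at chr5:157395534-157575775. MMP1 and MMP3 overlap the pseudogene WTAPP1 on the other strand, TIMP1 overlaps SYN1 and TIMP3 overlaps SYN3 on the other strand, MMP2 overlaps MMP2-AS1, ADAM17 overlaps IAH1 and ADAM19 overlaps CYFIP2 and NIPAL4 in the same way, and TIMP2 overlaps CEP295NL on its own strand. ADAM19 also overlaps the protein-coding gene ENSG00000285868 and MMP2 the unclassified ENSG00000279030, each on the member's own strand, and further unnamed genes overlap some members on the other strand. These overlaps are of whole gene spans, introns included. Counts of these genes could be uncertain by reads shared with such partners, which was not checked. MMP14 and ADAMTS1 overlap no annotated gene.

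Among other genes of matrix proteolysis, in 9 lists of 140 genes of which 98 were tested, 10 were called in FOXL2C134W against FOXL2WT (10.2%, against 11.2% of all genes), 6 higher and 4 lower. In the group of activators and clearance receptors 3 of 14 tested were called: LRP1, an endocytic receptor that clears proteases (log2 0.82, edgeR adjusted p = 0.00017), and FURIN, a proprotein convertase (log2 0.20, adjusted p = 0.016), were higher, and the serine protease inhibitor SERPINE2 was lower (log2 -0.34, adjusted p = 0.00040). Of 15 AP-1 and ETS factors 3 were called: FOSB (log2 -1.07, edgeR adjusted p = 0.013) and JUNB (log2 -0.42, adjusted p = 0.0061) lower, and FOSL1 (log2 0.28, adjusted p = 0.0013) higher. DESeq2 called 2 of the 15. FOSB had only 15 to 53 counts per library, with means of 1.33 CPM in Vectors, 2.37 in FOXL2WT and 1.13 in FOXL2C134W. ADAM12 was the only 1 of 9 other ADAMs (log2 0.25, edgeR adjusted p = 0.023), THSD4 the only 1 of 7 ADAMTS-like genes (log2 0.26, adjusted p = 0.0040), and the proteoglycan gene BGN the only 1 of 12 substrates (log2 0.25, adjusted p = 0.0061), all higher. TFPI2 was the only 1 of 6 other inhibitors and was lower (log2 -0.19, edgeR adjusted p = 0.037). Of 9 other MMPs, 10 other ADAMTS genes and 16 astacin, lysyl oxidase, hyaluronan and cathepsin genes tested, edgeR and DESeq2 called 0, with 0, 2 and 2 at an unadjusted p under 0.05. With the gene length offset ADAM12 (adjusted p = 0.28), THSD4 (0.49) and TFPI2 (0.21) were no longer called by edgeR, and the 9 lists held 11 calls in all.

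In the same lists, also chosen with earlier results known, 14 of 98 genes (14.3%, against 6.07% of all genes) were called in FOXL2WT against Vectors, 13 of them lower. In FOXL2C134W against Vectors 15 of 98 (15.3%) were called, 11 lower, a share near the 14.7% of all genes. The plasminogen activators PLAT and PLAU and the urokinase receptor PLAUR, part of the cascade that activates pro-MMPs, were lower in both; they are named after their values were seen. PLAT was at 20.0 ± 0.375 CPM in Vectors, 13.1 ± 1.45 in FOXL2WT and 12.7 ± 0.139 in FOXL2C134W, and PLAU at 130.1 ± 6.14, 99.2 ± 11.2 and 93.5 ± 4.38 CPM. TFPI2, a Kunitz-type inhibitor that also acts on MMPs, was at 81.7 ± 3.45, 55.0 ± 1.86 and 48.3 ± 3.36 CPM. Where FOXO1 was added, edgeR called 0 of the 98 with either form, against 13 at an unadjusted p under 0.05 in FOXL2WT+FOXO1 and 10 in FOXL2C134W+FOXO1, and DESeq2 called 0 and 1.

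Genes listed as markers of other cell types moved with the members in some comparisons, although all libraries came from 1 granulosa cell line. The summed level of 8 stroma markers, of which 6 were tested, was 1812 to 1907 CPM in Vectors, 1306 to 1484 in FOXL2WT, 1588 to 1602 in FOXL2C134W, 1461 to 1560 in FOXL2WT+FOXO1 and 1335 to 1518 in FOXL2C134W+FOXO1, so Vectors stood above the rest as it did for TIMP2. Most of that sum is COL1A1 (mean 1287 CPM over all libraries), followed by COL3A1 (157), THY1 (70.9) and PDGFRB (36.2), with PDGFRA at 1.19 and COL1A2 at 0.832 CPM, while DCN and LUM had 1 to 5 and 0 to 6 counts. COL1A1 (log2 -0.42 and -0.20, edgeR adjusted p = 8.4e-05 and 0.016) and COL3A1 (log2 -0.34 and -0.44, edgeR adjusted p = 0.0049 and 0.00024) were the 2 of 6 stroma markers called in FOXL2WT and in FOXL2C134W against Vectors, lower in both. Leukocyte markers summed to 104 to 118 CPM in Vectors and 93.5 to 98.2 in FOXL2WT, almost all CD68, with PTPRC at 0 to 5 counts. Endothelial markers summed to 34.7 to 38.0 CPM in Vectors, 27.3 to 30.4 in FOXL2WT and 24.9 to 27.4 in FOXL2C134W. Epithelial markers, mainly KRT8 and KRT18, summed to 4607 to 5148 CPM over all libraries, and theca markers to 4.27 to 7.02, with CYP17A1 at 0 or 1 count. The part of these genes in the members' results was not tested.

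The genes most like 5 of the called members, over 15 libraries and 12465 genes of at least 1 CPM, were sought by Pearson's r of log2 CPM. They were COL1A1 for TIMP2 (r = 0.95), TNFAIP8L1 for MMP14 (0.95), FADS2 for MMP2 (0.96), RNASE1 for MMP1 (0.92) and P4HA1 for ADAM17 (0.93). The next in rank were TAPBP and PODXL for TIMP2, C3 and LRRN4 for MMP14, ITGA5 and ADGRE5 for MMP2, GUSB and MEOX1 for MMP1, and ITFG1 and NT5E for ADAM17. These are descriptions of 15 libraries that share conditions, depth and cell line, and the highest of 12465 values is high by the choice itself. Between members, MMP14 and TIMP2 had r = 0.87 over the libraries and 0.43 once each condition's mean was taken out.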

How the data were processed

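Libraries of mRNA (TruSeq Stranded mRNA) were made from the extracted RNA and sequenced on a HiSeq4000 as 75-base single-end reads. The authors estimated transcript abundance with Salmon 1.1.0 on hg38 and imported it into R with tximport. The deposited gene table holds estimated counts already rounded to whole numbers, and the deposited transcript tables hold TPM, read estimates and effective lengths, listed per library. Whether counting used strand is not given in the sources used here, nor does any label used here name a batch. Of 37787 genes 15042 had 0 counts throughout.

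Counts were fitted with edgeR 4.0.16 (quasi-likelihood, TMM, filterByExpr, all 15 libraries, Benjamini-Hochberg adjustment) in R 4.3.3, instead of DESeq2, the tool the authors used, which served as an alternative (1.42.0). Intervals are nominally 95%, from the standard error taken as normal, and can be narrower than the test implies. For MMP1 in FOXL2WT against Vectors the interval excluded 0 (log2 -0.68 to -0.0049) at an unadjusted edgeR p of 0.062. CPM are TMM-scaled, with a prior count of 2 on the log2 scale. The edgeR steps were tested on simulated data with fold changes larger than that of any member called here. That test does not cover changes of the members' size. All 10 members were named, with up to 3 called genes per list and comparison. The genes whose pattern was most like that of ADAM19 are not reported here. Members and lists were chosen with earlier results of these data known. Alternatives were DESeq2, its size factors, transcript length offsets, other count filters, a fit on only the libraries compared, the replicate letter as a block, correction for gene length or GC content, and each library left out in turn. Totals of 14962245 to 25339094 counts limit what is detectable for genes near the floor of 3 counts, and these limits cover counting error only.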

Additional observations from a re-analysis of the deposited data

Results flagged for a closer look

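TIMP2 was the one result flagged. The FOXO1 effect on TIMP2 in FOXL2C134W minus its effect in FOXL2WT was log2 -0.20 (SE 0.05, 95% interval -0.31 to -0.09, edgeR adjusted p = 0.081), because TIMP2 was higher in every FOXL2WT+FOXO1 library than in every FOXL2WT library and lower in every FOXL2C134W+FOXO1 library than in every FOXL2C134W library. The difference was tested as an interaction and did not pass in edgeR. Over the 22 alternatives that gave this value for TIMP2 it ran from log2 -0.23 to -0.18, and it passed in DESeq2 (adjusted p = 0.0096) and in edgeR without FOXL2C134W+FOXO1 B (adjusted p = 0.046).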

How the results depend on the processing

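The 13 calls of single members were each recomputed under 16 alternative fits, many of them shared between calls, which gave 208 values. Of these, 173 kept the call, 35 lost it in the same direction and 0 turned. Of 68 values not called, 25 changed sign in some alternative and 6 were called in some. The members called in FOXL2C134W against Vectors, 3 in the reported fit, were 5 with the gene length offset and 5 with the replicate block with gene length offset, and 1 by DESeq2 with transcript length offsets. In FOXL2C134W against FOXL2WT the 2 became 0 with the gene length offset and 0 with the replicate block with gene length offset. In FOXL2WT+FOXO1 against Vectors the 2 became 1 with only the libraries compared. The interaction, 0 in edgeR, was 1 by DESeq2. Leaving out 1 library each gave 1 to 3 members for FOXL2C134W against Vectors, 1 to 2 for FOXL2C134W against FOXL2WT, 0 to 2 for FOXL2WT+FOXO1 against Vectors and 0 to 1 for the interaction. Other counts of members called moved by at most 1.5 times, and the cause was not tested. The replicate block by itself changed no count of members called. Deviations from the condition means correlated at -0.37 to 0.58 (median 0.018) between libraries of the same letter, with 11 of 30 pairs over 0.1. Between libraries of other letters they correlated at -0.48 to 0.33 (median -0.017), with 20 of 60 pairs over 0.1. With 3 libraries per condition, these values cannot tell whether the letters pair some of the libraries. No other scaling moved the median of all genes by more than 0.014 (log2). Depth limits MMP3, at 1 to 6 counts, and MMP1, at 35 to 97 counts.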
